A study of Anopheles arabiensis with 20 samples.

Results

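In the malaria mosquito *Anopheles arabiensis*, 95 of 13830 nuclear gene IDs (0.687%) had RNA levels that were high in females from 2 Ethiopian field sites, Asendabo (ASN) and Tolay (TOL), relative to every other group of the study. The genes were chosen from these same counts. A gene was taken when the lower of its ASN and TOL mean levels was at least 1 CPM (the gene's counts divided by the library's nuclear counts, times 1000000) and at least 2 times the highest of its means in Chewaka (CHW), Sekoru (SEK) and Mozambique (MOZ). The contrast of ASN and TOL with the other groups is therefore given as a description, without a test. Tests were made only for differences that the choice did not use.

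The study counted polyA RNA in 20 libraries, each from a pool of 10 whole females aged 3 to 5 days that had taken no blood, with 4 biological replicates in each of 5 groups. ASN, CHW and TOL were raised on site from larvae collected in south-western Ethiopia and had earlier shown resistance to deltamethrin and DDT, per the labels. SEK, from Ethiopia, and MOZ are laboratory strains used as susceptible references. No insecticide exposure is named in the labels for any group. ASN, TOL and CHW replicates 1 and 2 were sequenced in the first run named in the titles, and CHW replicates 3 and 4, SEK and MOZ in the second. Field or laboratory origin, site and sequencing run cannot be told apart for ASN and TOL against the strains. Total counts per library ran from 12205530 to 21516390.

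As background, deltamethrin, a pyrethroid, and DDT both act on the voltage-gated sodium channel of nerve cells. Mosquitoes are known to withstand them through changes in that channel, through enzymes that break insecticides down, such as cytochrome P450s, glutathione S-transferases and esterases, and through a thicker cuticle. None of the 95 IDs could be matched to a gene name in the RefSeq table of the assembly AaraD3, so no role, family or position is given for any of them, and no list of resistance genes could be counted. At most 2 genes are named by ID in each direction, and the others are described by their place in an order.

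The 95 genes covered a wide range of levels. The lower of the ASN and TOL means was under 10 CPM for 39 genes, from 10 to 100 CPM for 41, and at least 100 CPM for 15. Their median group mean was 14.5 CPM in ASN and 18.2 in TOL, against 4.75 in CHW, 2.19 in SEK and 2.05 in MOZ. The order of the groups was thus TOL, ASN, CHW and then the strains, and CHW was the highest of the 3 low groups for 69 of the 95 genes, SEK for 13 and MOZ for 13. In whole insects, fewer cells of a type and less RNA per cell cannot be told apart.

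The ratio of the lower high mean to the highest low mean had a median of 2.68 and reached 15.8. It was at least 3 for 35 genes, at least 5 for 10 genes and at least 10 for 2. The set has no gap at its edge. The gene just inside had a ratio of 2.005 and the gene just outside a ratio of 1.9996, and 19 members had ratios under 2.2 while 27 genes outside had ratios from 1.8 to 2. With CPM taken over all counts, mitochondrial genes included, 61 of the 95 met the same limits and no other gene did.

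Seen library by library, the 95 genes did not divide the 20 libraries cleanly by group. The median CPM over the 95 genes was 17.9, 19.8, 18.6 and 16.1 in TOL replicates 1 to 4. In ASN it was 15.8, 13.5 and 18.3 in replicates 2 to 4 but 4.43 in replicate 1. In CHW it was 3.89, 4.57, 5.42 and 2.32. ASN replicate 1 thus lay inside the range of the CHW libraries, below CHW replicates 2 and 3, while the other 3 ASN libraries lay beside TOL. The median was 1.38 to 2.36 CPM in the 4 SEK libraries and 1.51 to 2.13 in the 4 MOZ libraries, and these strain ranges overlapped each other. Of the strain libraries, only SEK replicate 3, at 2.36, was above CHW replicate 4, at 2.32.

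**Figure D1:**
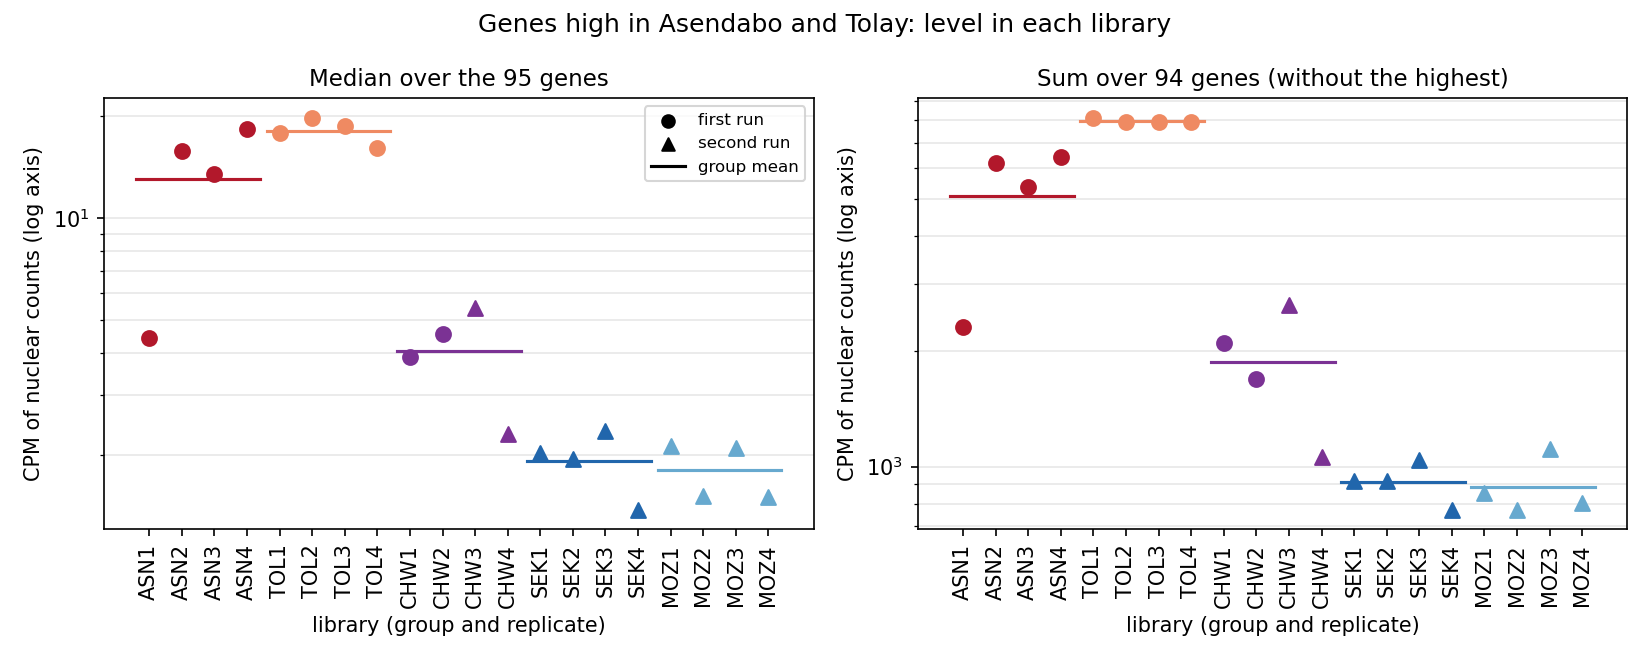
Level of the genes in each library, as CPM of nuclear counts on log axes: the median over the 95 genes (left) and the sum over 94 genes without the highest one (right), with circles for the first sequencing run, triangles for the second and lines for group means. ASN replicate 1, at a median of 4.43 CPM, sits among the CHW libraries and away from ASN replicates 2 to 4, at 13.5 to 18.3 CPM.

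Together the 95 genes took 14315 ± 1689 CPM in TOL, 7305 ± 3064 in ASN, 2577 ± 1058 in CHW, 1203 ± 222 in MOZ and 1250 ± 192 in SEK (SD over 4 libraries). A single gene, AARA015772, carried a large part of these sums. Without it the sum was 8135, 7917, 7917 and 7935 CPM in TOL replicates 1 to 4. It was 2311, 6209, 5346 and 6417 CPM in the ASN libraries in the same order. The 94 remaining genes therefore held a nearly constant share in TOL, and in ASN replicate 1 a share near that of the CHW libraries, at 1058 to 2639 CPM.

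ASN replicate 1 was the lowest of the 4 ASN libraries for 79 of the 95 genes (83.2%), against 37.3% of the 10088 other nuclear genes with a mean of at least 1 CPM in ASN. On the log2(CPM + 0.5) scale it lay below the mean of replicates 2 to 4 by a median difference of -1.51 for the 95 genes, where the median of the other genes was -0.10. For 67 of the 95 genes (70.5%) it was at least 2-fold lower, which held for 1.21% of 10262 other genes with a mean of at least 1 CPM over all libraries. These 67 stand beside 124 other genes with so low a value in this library, and 1 of the 95 and 30 other genes were at least 2-fold higher there. The low level of ASN replicate 1 thus concerned most of the 95 genes and few of the rest. The total count of ASN replicate 1, 17386535, lay within the range of all libraries.

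**Figure D2:**
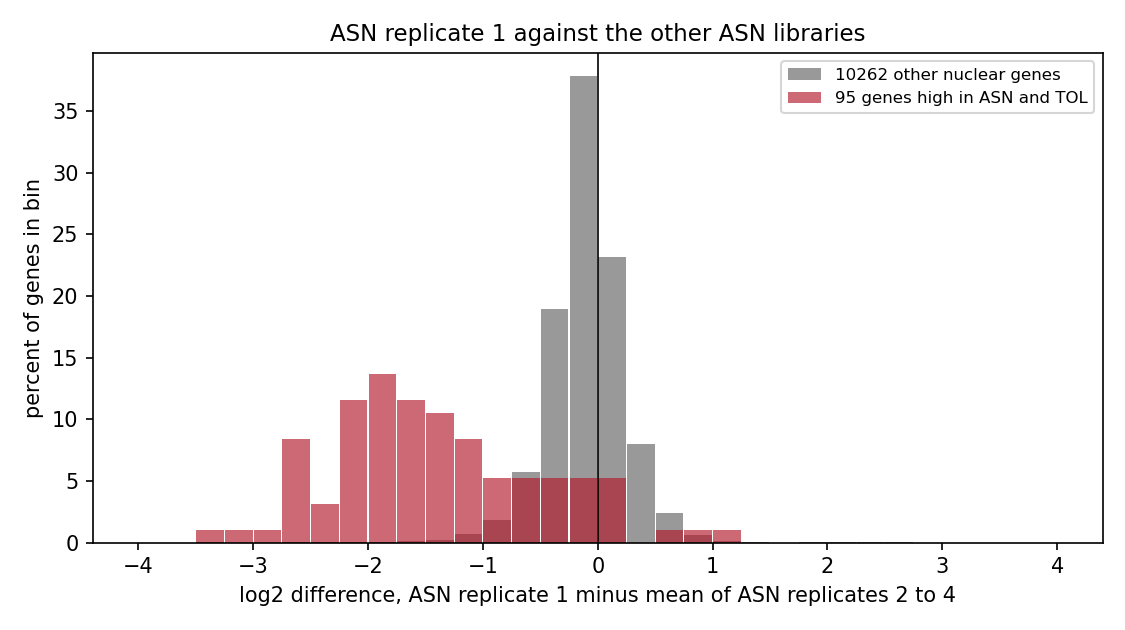
Distribution of the log2 difference between ASN replicate 1 and the mean of ASN replicates 2 to 4, in bins 0.25 wide, for the 95 genes and for 10262 other nuclear genes with a mean of at least 1 CPM, each as a percentage of its own set. The other genes centre near 0 (median -0.10), and the 95 genes centre at -1.51.

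How far the libraries separated depended on this library. All 8 ASN and TOL libraries lay above all 12 other libraries for 8 of the 95 genes, where 0.347% of all 13830 nuclear IDs did so, and for 73 when ASN replicate 1 was left out, where 1.45% did. The choice of the genes used this contrast, so nothing is read from the gap to those shares. The 4 TOL libraries alone lay above all 12 others for 77 genes (2.39% of all nuclear IDs), and the 4 ASN libraries alone for 12 (1.68%). Taken by itself, ASN replicate 1 was at least 2 times the highest low mean for 15 genes, whereas each other ASN or TOL library was so for 80 to 91. Leaving out CHW replicate 3 raised the count of fully separated genes from 8 to 25, and leaving out CHW replicate 1 raised it to 13. The shares of all nuclear IDs were not computed for these omissions, so nothing particular to the 95 genes is read from them. Choosing the genes anew without ASN replicate 1 gave 119 genes, 94 of them among the 95.

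**Figure D3:**
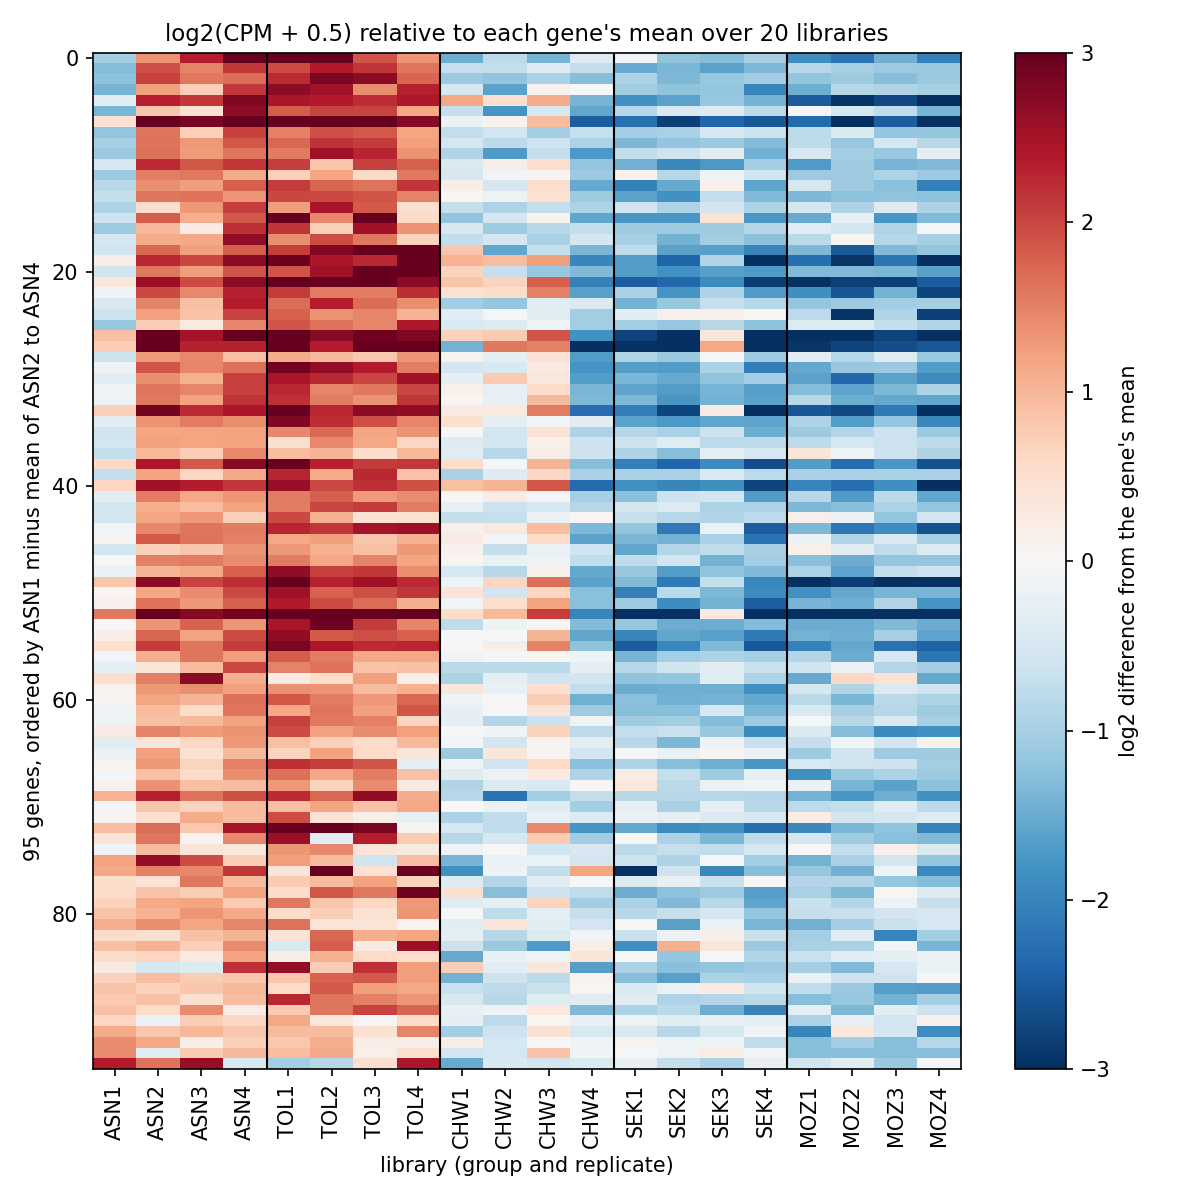
Level of each of the 95 genes (rows) in each of the 20 libraries (columns), as log2(CPM + 0.5) minus the gene's mean over all libraries, ordered from the gene lowest in ASN replicate 1 relative to the other ASN libraries (top) to the highest (bottom). ASN replicate 1 is pale or blue where ASN replicates 2 to 4 are red for most rows, and only the lowest rows are red in all 8 ASN and TOL libraries.

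A minority of the genes were as high in ASN replicate 1 as in the other ASN libraries. It was not the lowest ASN library for 16 of them. An example is one of the 8 fully separated genes, with 88.1, 93.5, 72.8 and 97.6 CPM in ASN replicates 1 to 4 and 244, 156, 147 and 128 CPM in TOL. In CHW it had 28.6 to 40.5 CPM, in SEK 26.5 to 39.7 and in MOZ 18.8 to 25.4. All 8 libraries from Asendabo and Tolay were above the rest for it. A contrasting gene had 39.9 CPM in ASN replicate 1 and 283 to 388 CPM in replicates 2 to 4. In TOL it had 318 to 675 CPM, and its 12 CHW, SEK and MOZ libraries lay between 36.7 and 48.9 CPM. For that gene ASN replicate 1 lay inside the range of the groups chosen as low.

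The gene with the highest level was AARA015772. It had 614, 2983, 2129 and 3210 CPM in ASN replicates 1 to 4. In TOL it had 3847, 6277, 7411 and 7822 CPM, and in CHW 1606, 306, 557 and 351. Every TOL library was above every ASN library, and ASN replicate 1 was below CHW replicate 1. The strains had 228 to 532 CPM in SEK and 158 to 398 in MOZ. The fitted log2 fold change of AARA015772 between ASN and TOL was -1.57 (SE 0.511, adjusted p 0.0797 in edgeR's quasi-likelihood test), which did not pass the threshold. DESeq2 gave -1.56 with an adjusted p of 0.0486, which did, and over 17 alternatives the adjusted p of AARA015772 ran from 0.0486 to 0.215.

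The gene with the largest ratio was AARA016067, at low counts. It had 12, 28 and 45 counts in ASN replicates 2 to 4 and 0 in replicate 1, where 0 counts allow up to 0.251 CPM. In TOL it had 23, 59, 35 and 10 counts. The 12 other libraries had at most 4 counts each, with 2 counts in all of CHW, 4 in SEK and 6 in MOZ. Its mean was 1.57 ± 1.52 CPM in ASN and 2.58 ± 1.67 in TOL, against 0.0993 ± 0.117 in MOZ, the highest of the low groups (SD, n = 4 each). All ASN and TOL libraries except ASN replicate 1 were above all others. Between ASN and TOL its log2 fold change was -0.83 (SE 0.650, edgeR adjusted p 0.520).

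**Figure D4:**
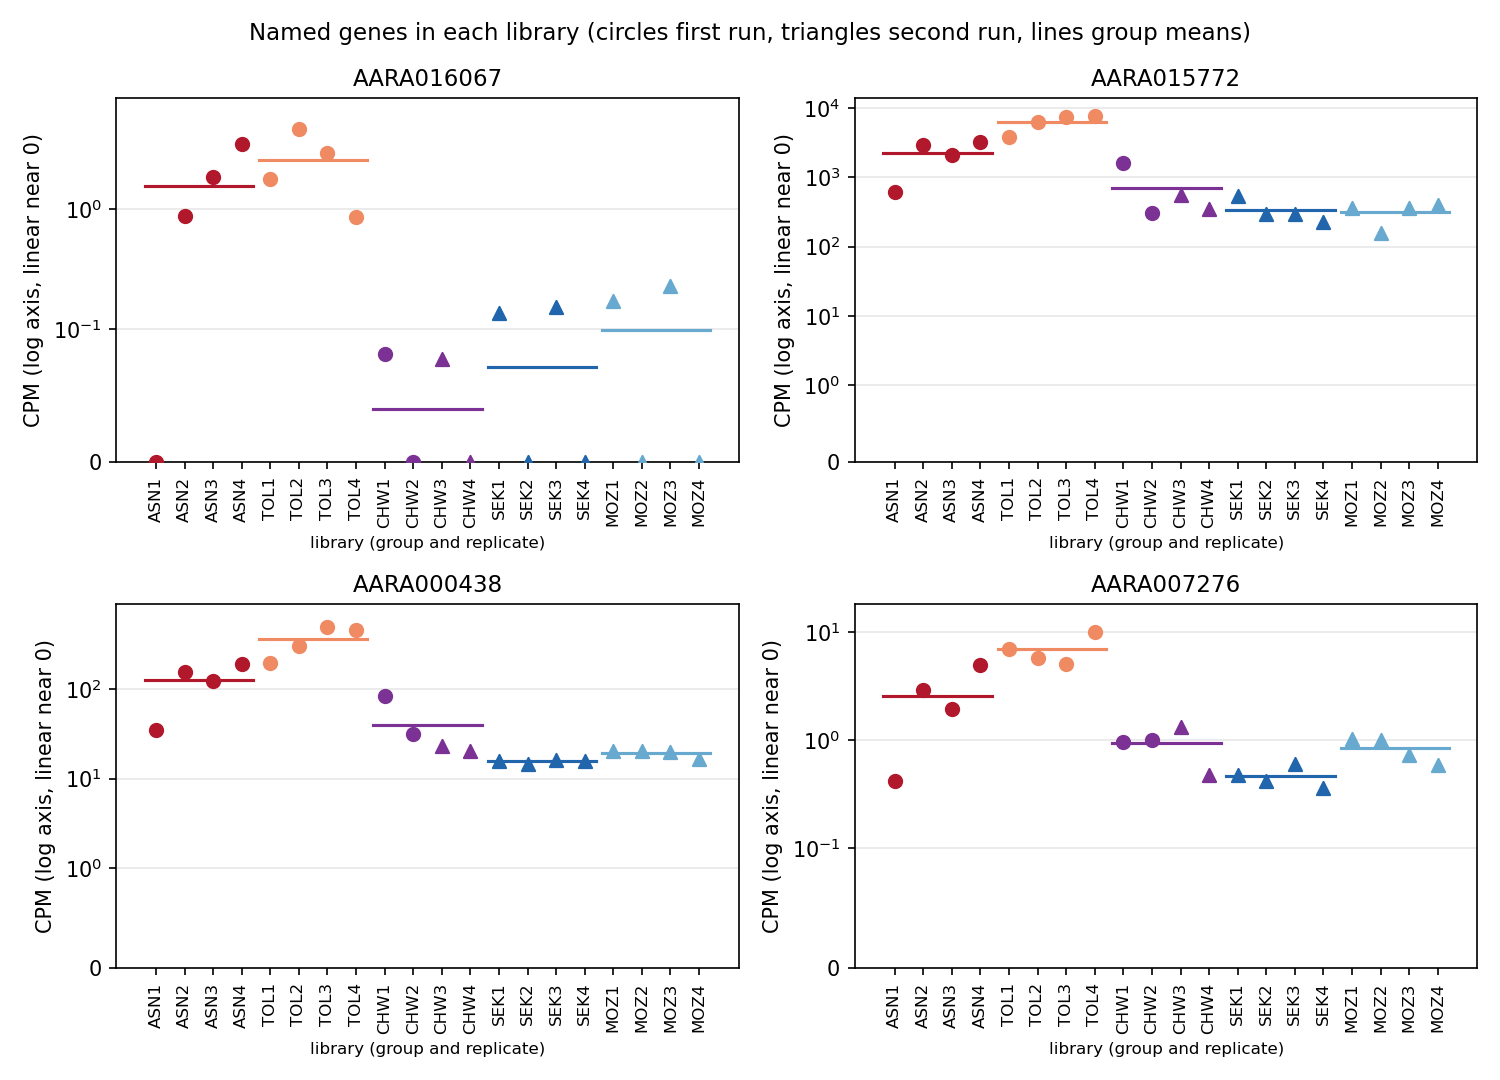
CPM of the 4 named genes in each library, on log axes that turn linear near 0, with circles for the first run, triangles for the second and lines for group means. In all 4 genes ASN replicate 1 is the lowest ASN library.

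The first comparison that the choice of genes left free was ASN against TOL, both high and both in the first run. The 95 genes tended to be lower in ASN, and few passed a test. Their median log2 fold change was -0.59, where the median of all 11018 genes tested was -0.02, and 86 of the 95 were below 0. At an adjusted p under 0.05 and at least 2-fold, edgeR called 4 of the 95 lower in ASN, where 0.345% of all genes tested were called lower. It called 0 higher, where 1.04% of all genes were. At an unadjusted p under 0.05 it found 24 of the 95, 22 lower and 2 higher. Of all genes, 20.02% passed that limit in either direction. DESeq2 and limma with voom also called 0 higher, where they called 134 and 95 of all 11018 genes higher. The choice required the lower of both means to pass, which does not set their order, but the ASN mean was the lower one for 83 genes and so is the value at the limit for most of them.

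The largest called decreases were in AARA000438 and AARA007276. AARA000438 had 35.2, 154, 123 and 191 CPM in ASN and 194 to 486 CPM in TOL. Each ASN library was below each TOL library, although ASN replicate 4 came close to TOL replicate 1. The log2 fold change of AARA000438 was -1.57 (SE 0.413, edgeR adjusted p 0.0309), and CHW replicate 1, at 82.4 CPM, was above ASN replicate 1. AARA007276 had 0.418, 2.94, 1.93 and 5.03 CPM in ASN and 7.02, 5.78, 5.04 and 10.1 CPM in TOL. Its ASN and TOL libraries met at 5.03 and 5.04 CPM without overlapping. The log2 fold change of AARA007276 was -1.51 (SE 0.388, edgeR adjusted p 0.0270).

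ASN replicate 1 weighed on this comparison too. Without it the median log2 fold change of the 95 genes was -0.33 and 2 of the 4 calls remained, where 0.162% of all genes were called lower and 0.584% higher. AARA000438 was then at -1.27 (adjusted p 0.0822) and AARA007276 at -1.18 (adjusted p 0.0476). Without ASN replicate 3 edgeR called 0 of the 95, where 14 of all 11140 genes were called lower and 72 higher. At an unadjusted p under 0.05 it then found 18 of the 95 and 15.9% of all genes. Without ASN replicate 4 it called 8 lower and 1 higher, where 79 of all 11135 genes were lower and 189 higher. Without TOL replicate 1, 2 or 3 it called 2 lower, where 23, 31 and 28 of all genes were. Without TOL replicate 4 it called 4 lower and 1 higher, where 50 of all 11175 genes were lower and 100 higher. The call of AARA000438 was also lost without ASN replicate 3 and without TOL replicate 2, 3 or 4, and that of AARA007276 without ASN replicate 2 or 3 and without TOL replicate 1 or 4, with adjusted p from 0.0509 to 0.103. With library totals in place of TMM, a scaling that assumes most genes do not change, the median of all genes moved from -0.02 to 0.09. EdgeR then called 0 of the 95, where 20 of all 11018 genes were called lower and 155 higher. At an unadjusted p under 0.05 it found 19 of the 95 and 16.8% of all genes.

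**Figure D5:**
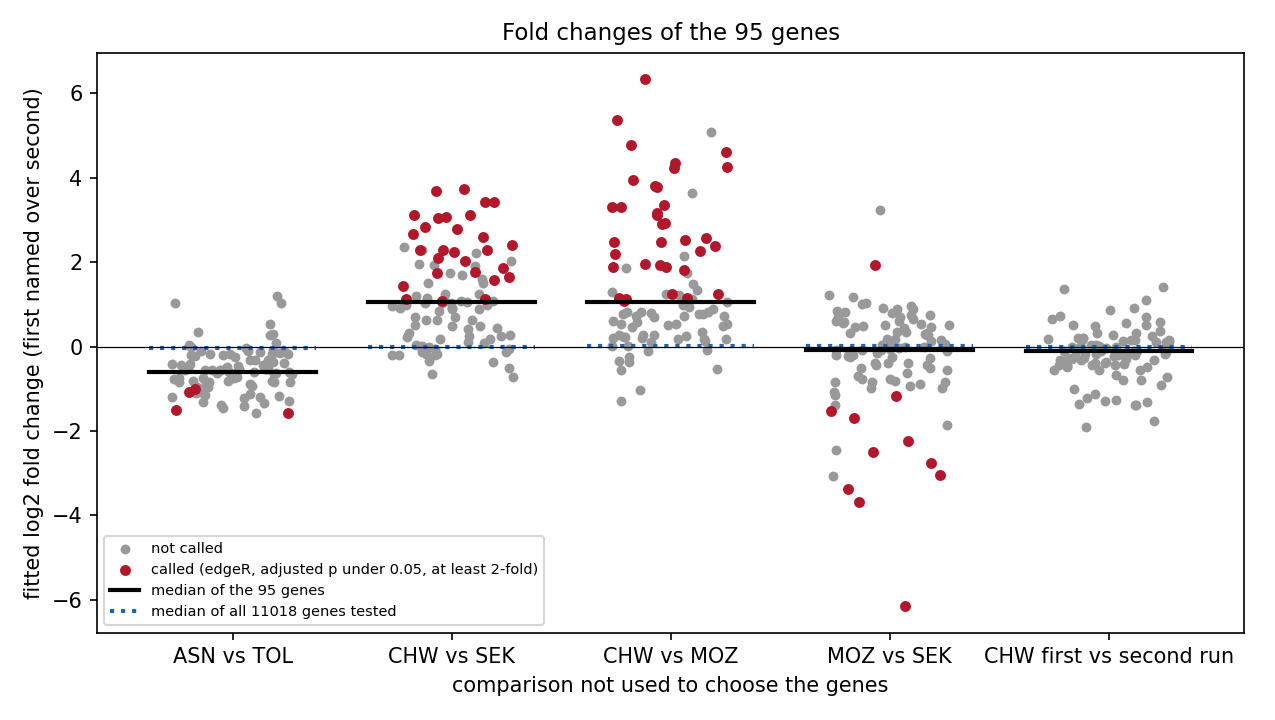
Fitted log2 fold changes of the 95 genes (points) in 5 comparisons that the choice of genes did not use, with red points for genes called by edgeR, black lines for the median of the 95 genes and dotted blue lines for the median of all 11018 genes tested. Most points lie above 0 in both comparisons of CHW with a strain (medians 1.06 and 1.06) and around 0 in MOZ vs SEK and between the CHW runs.

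CHW, the third field population, was next compared with the strains, which the choice capped together without ordering them. A minority of the 95 genes were called higher in CHW and none lower, and 56 were called against neither strain. Against SEK edgeR called 28 of the 95 higher, where 2.03% of all genes tested were, and 0 lower, where 1.62% were. Against MOZ it called 35 higher (4.68% of all genes) and 0 lower (6.01%). None of the 95 was lower in CHW at an unadjusted p under 0.05 in either comparison. Of all genes, 25.6% and 44.8% were under 0.05 in either direction. DESeq2 and limma with voom called 0 lower, where DESeq2 called 196 and 683 of all genes lower and limma with voom 130 and 682. Limma with voom called fewer higher, 8 against SEK and 20 against MOZ, where it called 161 and 470 of all genes. DESeq2 called 34 and 39 of the 95 higher, and 245 and 533 of all genes. The median log2 fold change of the 95 genes was 1.06 against SEK and 1.06 against MOZ, with 80 and 86 of the 95 above 0, where the medians of all genes were 0.00 and 0.01. In all, 24 genes were called higher than in both strains, as were 0.871% of all genes tested, and 39 higher than in at least 1, as were 5.84%. Both comparisons share the CHW libraries. With library totals alone the medians of all genes moved to -0.15 and -0.17, and 21 and 31 of the 95 were called higher. Of all 11018 genes, 169 and 377 were called higher then.

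The largest called change against SEK was in a gene with 3.65, 4.57, 8.52 and 0.341 CPM in CHW replicates 1 to 4. It had 0.169 to 0.472 CPM in SEK and at most 0.426 in MOZ. CHW replicate 4 was at the level of the strains for it. Its log2 fold change was 3.73 against SEK (SE 0.885, edgeR adjusted p 0.0108). A second gene had 17.1, 15.05, 33.9 and 1.91 CPM in CHW against 0.871 to 2.13 in SEK and 0.767 to 1.26 in MOZ. It too had CHW replicate 4 inside the SEK range, with a log2 fold change of 3.68 against SEK (SE 0.640, adjusted p 0.00116). All 4 CHW libraries lay above all 8 strain libraries for 6 of the 95 genes, against 1.13% of all nuclear IDs.

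The comparison with SEK depended on single libraries. It gave 12 higher calls without CHW replicate 3, where 166 of all 11172 genes tested were called higher. It gave 15 without SEK replicate 4 (175 of 11153 genes) and 18 without SEK replicate 1 (205 of 11097). With all libraries 224 of 11018 genes were called higher. The comparison with MOZ gave 28 to 44 over all single omissions. The 28 came without CHW replicate 3 (456 of 11172 genes) and the 44 without CHW replicate 4 (568 of 11138). Within the second run alone, which leaves CHW replicates 3 and 4, 82 of the 95 genes could be tested. There edgeR called 10 higher than in SEK (1.26% of all genes tested) and 20 higher than in MOZ (3.34%). It called 0 lower than in SEK (0.681% of all genes) and 0 lower than in MOZ (3.56%). None was lower at an unadjusted p under 0.05 either, where 19.1% and 30.5% of all genes passed in either direction.

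Between the strains the median of the 95 genes was near 0, while the called genes were mostly lower in MOZ. The median log2 fold change of MOZ against SEK was -0.07, with 43 of the 95 above 0, beside 0.02 for all genes. EdgeR called 10 lower in MOZ, where 6.29% of all genes were called lower, and 1 higher, where 6.42% were. At an unadjusted p under 0.05 it found 16 lower and 4 higher, where 49.1% of all genes passed in either direction. Without MOZ replicate 4 the calls were 5 lower and 0 higher, where 676 of all 11153 genes were lower and 683 higher. Without SEK replicate 3 they were 6 and 1 (651 and 722 of 11128 genes). Without MOZ replicate 2 or 3 or SEK replicate 2 there were 2 higher (684, 706 and 753 of all genes). The gene called higher had 0.507 to 1.09 CPM in MOZ and 0 to 0.305 in SEK. Of the 95 genes, 2 had 0 counts in all 4 MOZ libraries and none had 0 counts in all libraries of any other group.

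The sequencing run could be compared within CHW. In replicates 1 and 2 against 3 and 4, edgeR called 0 of the 95 genes and 0% of the 11018 tested. At an unadjusted p under 0.05 it found 2 of the 95, 1 in each direction, and 5.26% of all genes. Neither DESeq2 nor limma with voom called any of the 95. Of all 11018 genes, DESeq2 called 2 higher and 2 lower, and limma with voom called 0. The median log2 fold change of the first run over the second was -0.11. The second-run libraries differed from each other, however, as the median became 0.97 without CHW replicate 3 and -0.63 without CHW replicate 4. Within the first run alone, the median over the 95 genes was 3.89 and 4.57 CPM in CHW replicates 1 and 2. It was 13.5 to 19.8 CPM in all ASN and TOL libraries except ASN replicate 1, at 4.43 CPM. The choice of the genes used the contrast of ASN and TOL with CHW, so nothing about the run is read from that gap. Choosing the genes with only the first-run CHW libraries gave 100 genes, 89 of them among the 95. With only the second-run CHW libraries it gave 97, sharing 87.

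The genes also moved together among replicates of the same group. The choice used group means, which every library enters, so this likeness is not independent of the choice. Of the 95 genes, 76 were still chosen without CHW replicate 4 and 72 without ASN replicate 4. How much of the likeness comes from the choice was not tested. For each gene the log2 CPM of each library was taken relative to its group mean and correlated with the average of the other 94 genes over the 20 libraries, which share the pools and their depth. The median Pearson r of the 95 genes was 0.70 and 68 of them (71.6%) were above 0.5, against a median of 0.03 and 4.78% of 10262 other nuclear genes correlated with the same average. Without ASN replicate 1 the median was 0.56 and 53.7% were above 0.5, against -0.03 and 3.84% for the other genes. Over the 12 CHW, SEK and MOZ libraries it was 0.55 and 55.8%, against -0.09 and 9.696%. Without all ASN libraries it was 0.45 and 46.3%, against -0.13 and 6.82%. Without all ASN libraries and CHW replicates 3 and 4 it was 0.33 and 29.5%, against -0.03 and 3.498% for the other genes. The likeness was thus weaker without the libraries that stood apart. Group means were taken over all 4 libraries even where only part of a group was left out. The values without ASN replicate 1 and without CHW replicates 3 and 4 are therefore not free of those libraries. The size of this effect was not tested. The values without all ASN libraries and over the 12 libraries left out whole groups. AARA007276, at 0.83, followed the others closely, while AARA015772 had 0.55, which became 0.30 without ASN replicate 1. In 9 of the 95 genes r was below 0 over the 20 libraries, against 45.0% of the other genes.

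In CHW the shared movement set replicates 3 and 4 apart. Of the 74 genes with a CHW mean of at least 1 CPM, replicate 3 was the highest CHW library for 44 and replicate 4 the lowest for 50 (67.6%, against 19.8% of 10087 other genes). Replicate 4 was at or below 50% of the lowest other CHW library for 31 of the 74 (41.9%), against 1.001% of the others. The choice of the genes capped the CHW mean, and a low replicate 4 lowers that mean. Chosen anew without CHW replicate 4, the set had 82 genes, 76 of them shared with the full set. How much of these gaps between the CHW shares comes from the choice was not tested. In SEK, replicate 3 was the highest library for 31 of 59 genes (52.5%), but also for 35.5% of 10225 other genes, and replicate 4 the lowest for 27 (45.8%, against 19.3%). Replicate 3 was at least 2 times every other SEK library for 8 of the 64 genes with at least 1 CPM in it (12.5%), against 0.389% of 10282 other genes. These 8 genes also had the low CHW replicate 4 and were at least 2-fold lower in ASN replicate 1, 8 of 8 in both cases. One of them had 3.17, 1.78, 35.3 and 1.74 CPM in SEK replicates 1 to 4, and 41.8, 56.6, 121 and 6.88 CPM in CHW. Its MOZ libraries had 0.587 to 2.27 CPM.

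Mitochondrial RNA, which is outside the denominator used here, was also higher in the ASN and TOL libraries than in the others. The 13 mitochondrial protein-coding genes took 11.96% to 16.9% of all counts in TOL and 10.8% to 14.7% in ASN. They took 2.65% to 9.07% in CHW, 3.01% to 5.49% in SEK and 0.573% to 2.26% in MOZ. CHW replicate 3 had the highest CHW share and replicate 4 the lowest, the same order as the 95 genes. In SEK the orders differed, as replicate 3 had the highest median of the 95 genes and the lowest mitochondrial share, and replicate 2 had the highest share. ASN replicate 1 had 14.1%, inside the range of the other ASN libraries, while its level of the 95 genes was not. The part of the mitochondrial share in these results was not tested.

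The gene IDs of the set were often consecutive in number. Of the 182 IDs in the table whose number is 1 above or below that of a member, counted once for each member, 24 (13.2%) were members, where 0.687% of all nuclear IDs are. They formed 8 pairs and 2 runs of 3, with 22 genes in all. What the order of the numbers stands for is not given in the sources used here. Genes of a run had like profiles in some cases. In one run of 3 the means were 4.72, 6.82 and 6.03 CPM in ASN and 6.58, 9.35 and 11.01 CPM in TOL, with 1.58 to 2.13 CPM in CHW and 0.182 to 0.623 in the strains. In one pair the level differed widely, with 12.3 and 592 CPM in ASN. Whether genes of a run are near-identical copies was not tested. Such copies can share reads, and how shared reads were counted is not stated, so values within runs may be uncertain.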

How the data were processed

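RNA of 20 pools was counted per gene. The deposited values are raw counts, since they are whole and their sums differ between libraries. Per the labels, libraries were stranded, polyA-selected and read as pairs, and reads were trimmed by the sequencing facility. The submitters' processing notes name FastQC 0.11.4, HISAT2, Cufflinks, SAMtools 1.5 and HTSeq 0.9.0, without roles. The genome build, the annotation and the use of strand in counting are not stated in any source used. The table holds 13867 IDs, of which 37 are mitochondrial.

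CPM was computed over nuclear counts, which summed to 9868619 to 17643001 per library, and log2 values used a pseudocount of 0.5 CPM. Tests used edgeR 4.0.16 (quasi-likelihood, TMM, filterByExpr by group, all 20 libraries, no covariates) in R 4.3.3 on all genes. The filter kept 11018 genes, including all 95 members. The standard error was the log2 fold change divided by the square root of F. DESeq2 1.42.0 and limma 3.58.1 were alternatives. The fit was tested on simulated data. The smallest chi-square per degree of freedom between replicates was 25.4, so all libraries counted as separate samples. Counting limits cover counting error only, since reads are not independent molecules.

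The members, lists and tests were chosen with earlier results of these data known. Genes named are the member with the largest ratio, the member with the highest level, and the 2 called lowest in ASN against TOL. The 8 genes high in SEK replicate 3, the description of ASN replicate 1 and the examples without ID were chosen after their values were seen. Planned lists of detoxification, cuticle and other genes could not be built, since 0 AARA IDs matched a name.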

Additional observations from a re-analysis of the deposited data

Results flagged for a closer look

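In 35 groups of 4 values (the 4 named genes, the sum with and without the highest gene, and the median, in each of the 5 groups), 3 held a library far from the others by Dixon's 95% limit, where chance marks about 1 in 20. The sum without the highest gene was 8135 CPM in TOL replicate 1, above the 7917 to 7935 of the other TOL libraries, a small gap in a tight group. AARA015772 had 158 CPM in MOZ replicate 2, below the other MOZ libraries at 358 to 398. AARA000438 had 16.6 CPM in MOZ replicate 4, below the others at 19.7 to 20.3. The median of ASN replicate 1 did not pass that limit. Gene by gene, 33 of 475 groups of values passed it, 8 of them with SEK replicate 3 as the highest library and 4 with ASN replicate 1 as the lowest.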

How the results depend on the processing

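The number of genes chosen was 61 with CPM over all counts, 181 at a ratio of at least 1.5 and 35 at a ratio of at least 3, and 74 (without ASN replicate 4) to 119 (without ASN replicate 1) when 1 library was left out. With TMM scaling, group medians and other minimum levels it stayed within 1.5 times of 95. Genes lower in ASN than in TOL numbered 4 (38 of all 11018 genes tested). They numbered 0 with library totals alone (20 of all genes). With limma and voom they numbered 7, 3 of them among the 4 (42 of all genes). With the first run alone there was 1 (32 of 10804), and with 1 library left out there were 0 to 8 (14 to 79). Higher ones numbered 0 to 1 then (65 to 189 of all genes). Genes higher in CHW than in SEK numbered 28 (224 of all genes), and 8 with limma and voom (161). The second run alone, an alternative added after seeing the data, gave 10 (140 of 11153 genes). With 1 library left out there were 12 to 38 (166 to 267). Against MOZ they numbered 35 (516 of all genes), 20 with limma and voom (470) and 20 with the second run alone (373). For MOZ against SEK, 10 lower genes (693 of all genes) became 5 with limma and voom (663). They became 6 with the second run alone (725) and 5 to 10 with 1 library left out (651 to 746). The 1 higher gene (707 of all genes) became 2 without the fold limit (2360), with upper-quartile scaling (834) and with DESeq2 (695). With 1 library left out it became 0 to 2 (613 to 759). The replicate block, with the shared numbers 1 to 4 as a block, left 2 of the 4 genes lower in ASN than in TOL. Of all 11018 genes, 42 were called lower then. The block moved no other count of the 95 by over 1.5 times. The numbers do not pair the samples, as deviations of same-numbered libraries had r over 0.1 in 12 of 40 pairs of groups and numbers (-0.27 to 0.48), and the best match had the same number in 23 of 80 cases. AARA000438 kept its sign over 17 alternatives, from -1.76 to -1.27 with adjusted p from 0.00921 to 0.0896, and AARA007276 from -1.95 to -1.18 with adjusted p from 0.00413 to 0.103. ASN replicate 1 was the lowest ASN library for 77 genes after TMM scaling, against 79. For any shift not traced here to fewer libraries or genes, the cause was not tested. Depth limits genes near 1 CPM, where 3 counts come to 0.25 CPM in ASN replicate 1.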
